A study of Mus musculus with 2 samples.

Results

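Among 7130 cells of a CCl4-injured mouse liver library that passed the limits on depth and mitochondrial RNA, 324 met a rule meant to pick vascular smooth muscle cells. A cell had to hold at least 3 unique molecular identifiers (UMIs, each marking 1 captured RNA molecule) of Myh11, at least 5 of Acta2 and Tagln together, no Ptprc and at most 1 of Pecam1 and Cdh5 together. These cells made up 4.54% of the passing cells of the library (exact Clopper-Pearson 95% interval 4.07 to 5.05%) and belonged to the 12710 passing cells of both libraries. The levels of Myh11, Acta2 and Tagln chose the cells and are given below as a description only. The remaining genes of the cells went against the label of smooth muscle, so they are called Myh11-positive cells here.

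Myh11 encodes the smooth muscle myosin heavy chain, which slides along actin to contract the wall of arteries and veins, and calponin 1 (Cnn1), leiomodin 1 (Lmod1) and phospholamban (Pln) belong to the same contractile machinery. Hepatic stellate cells are the vitamin A-storing pericytes of the liver sinusoids, marked in mice by Lrat, Reln and Colec11. On chronic injury they become myofibroblasts that deposit collagen and make Acta2 and Tagln, so these 2 markers do not separate the 2 cell types, while Myh11 is used as a marker of vascular smooth muscle.

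Both libraries were made from livers of adult Col1a2CreER:Rosa26tdTomato mice on a C57BL/6 background. In these mice Col1a2 regulatory DNA drives an inducible Cre recombinase that switches on tdTomato. The study used male and female mice and does not give the sex of the mice behind either library. One library came from uninjured, healthy mice and the other from mice given repeated injections of CCl4, a liver toxin, in corn oil for 12 weeks. Both were depleted of CD45-positive cells. The number of mice behind each library is not given in the sources used here, and neither tdTomato nor Cre was among the counted genes. With 1 library a group there was no replicate, so no p-value is given and every interval covers counting error only. The passing cells had a median of 13055 UMIs in the CCl4 library and 7135 in the healthy library, and the Myh11-positive cells had a median of 17198.5 UMIs (range 2586 to 56382). The libraries shared 10 barcodes, none of them among the Myh11-positive cells.

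The comparison cells were 213 stellate myofibroblasts of the same library, defined by at least 10 Acta2 UMIs, no Myh11 UMI and at least 5 UMIs of Lrat, Reln, Colec11 and Rgs5 together. Their median depth was 16898 UMIs. Levels below are summed UMIs of a population scaled to a common total (CPM), and a ratio is the level in the Myh11-positive cells over that in the myofibroblasts with an exact binomial 95% interval.

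Stellate cell genes were carried by the Myh11-positive cells at close to the level of the myofibroblasts. Lrat, which esterifies retinol for storage, stood at 205 CPM against 248 CPM in the myofibroblasts. Reln, an extracellular glycoprotein, stood at 416 against 498 CPM and Colec11, a secreted collectin, at 554 against 579 CPM. Lrat, Reln and Colec11 helped to choose the myofibroblasts but not the Myh11-positive cells. The 18 stellate cell genes outside both rules had a median log2 ratio of -0.01, equal to the median of -0.01 over the 3096 genes with at least 50 CPM in either population. Of the 14 that reached 50 CPM, 6 had a ratio above 1, near the 48.6% of all tested genes that did, and none differed by 2-fold, as was the case for nearly all tested genes (0.614% were 2-fold higher and 0.517% lower). Hgf, the hepatocyte growth factor, was at 361 against 353 CPM, and Colec10, the partner collectin of Colec11, was at 71.9 against 71.4 CPM. The lowest ratio of the list belonged to Rspo3, a Wnt enhancer, at 228 against 365 CPM (ratio 0.62, 0.58 to 0.67).

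The stellate signal lay in most of the cells. Lrat, Reln and Colec11 together gave 0 to 128 UMIs a cell in the Myh11-positive cells with a median of 14.5, and 4 to 106 with a median of 21 in the myofibroblasts. Of the 324 Myh11-positive cells, 244 held 5 or more (75.3%, 70.2 to 79.9%), 67 held 1 to 4 and 13 held none. Immune cells of the same library (328 cells, median depth 5093 UMIs), which should lack these genes, served as a measure of free RNA. They were chosen by at least 2 Ptprc UMIs and at most 5 UMIs of Col1a1 and Col3a1 together, a limit that also leaves out immune cells with more stromal RNA. After every cell was thinned to 2000 UMIs, 27.0% of the Myh11-positive cells had a Lrat UMI against 1.3% of 305 immune cells, with 23 shallower immune cells and no Myh11-positive cell left out. The same shares for Reln were 43.5% and 3.5%, and for Colec11 50.6% and 3.5%. Without thinning, Lrat was found in 66.4% of the Myh11-positive cells and in 3.4% of the immune cells. Without the collagen limit, 377 immune cells (median depth 5395 UMIs) gave thinned shares of 3.12% for Lrat, 6.79% for Reln and 6.90% for Colec11. The shares in the Myh11-positive cells were higher than in both sets of immune cells for all 3 genes. They lay below the thinned shares of 35.1%, 57.9% and 61.5% in the myofibroblasts. The part of free RNA, or of stellate cells captured together with another cell, in the stellate signal was not tested.

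Fibrosis matrix RNA was also as abundant as in the myofibroblasts. Col1a1, a chain of type I collagen, ranged from 0 to 508 UMIs a Myh11-positive cell with a median of 81.5, and from 5 to 332 with a median of 70 in the myofibroblasts. Summed over cells it stood at 5490 against 4404 CPM (ratio 1.25, 1.22 to 1.27). Col3a1, the type III collagen chain, was at 7691 against 8058 CPM, and Sparc, a collagen-binding matricellular protein, was at 9917 against 10315 CPM. Dcn, the collagen-binding proteoglycan decorin, was lower at 6304 against 8122 CPM (ratio 0.78, 0.76 to 0.79). The 32 genes of the fibrillar collagen and fibrosis matrix list had a median log2 ratio of 0.12, none of its 30 genes above 50 CPM reached 2-fold in either direction, and 20 of the 30 had a ratio above 1, where 48.6% of all tested genes did. Tnc (tenascin C, ratio 1.77, 1.55 to 2.02) and Thbs1 (thrombospondin 1, 1.70, 1.55 to 1.87) had the highest ratios of the list, and Timp1 (an inhibitor of matrix metalloproteinases, 0.56, 0.52 to 0.60) the lowest. Basement membrane genes had a median log2 ratio of 0.29, with 8 of 9 tested genes above a ratio of 1. The chains of type IV collagen Col4a1 and Col4a2 stood at 2113 and 1117 CPM in the Myh11-positive cells against 1521 and 813 CPM in the myofibroblasts.

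**Figure D1:**
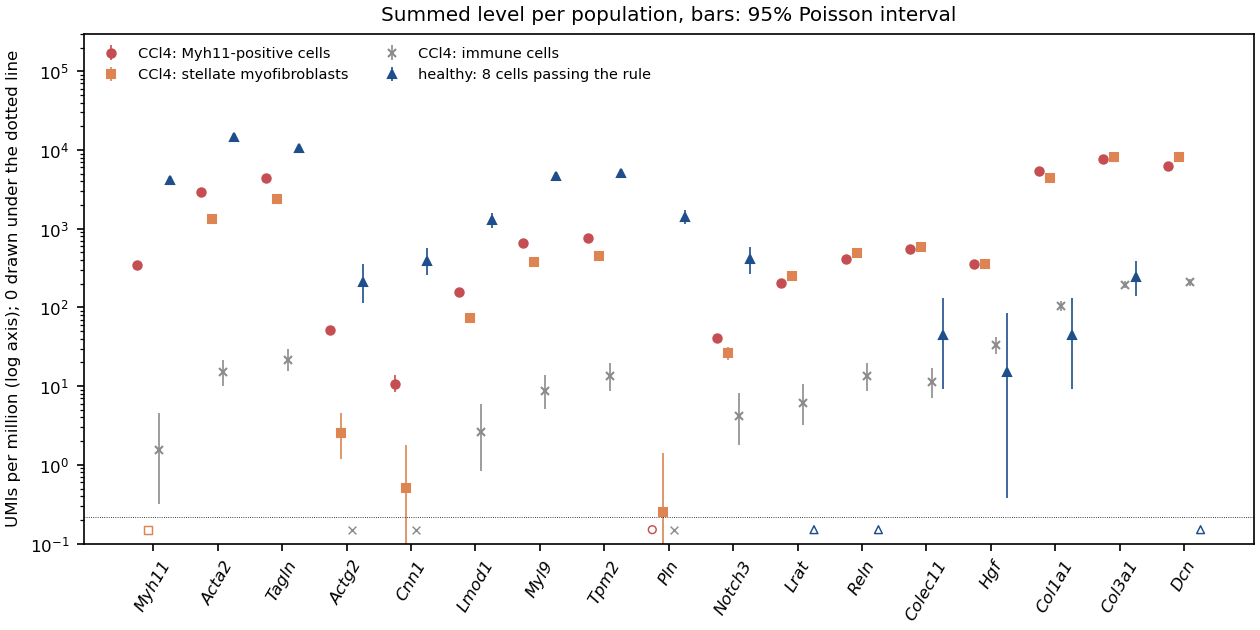
Summed levels (CPM, log axis) of contractile, stellate and matrix genes in the Myh11-positive cells, the stellate myofibroblasts and the immune cells of the CCl4 library and in the 8 cells of the healthy library that passed the same rule, with 95% Poisson intervals and values of 0 drawn under the dotted line. The Myh11-positive cells lie next to the myofibroblasts for Lrat, Reln, Colec11, Hgf and the collagens, while the 8 healthy cells hold Pln at 1416 CPM and no Dcn UMI.

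Contractile genes stood higher in the Myh11-positive cells than in the myofibroblasts. All 19 contractile genes above 50 CPM had a ratio above 1 (48.6% of all tested genes did), 2 of them by 2-fold or more, and the median log2 ratio over the 23 genes of the list, rule genes left out, was 0.45. The cells were selected on 3 genes of this apparatus, and no test was run on the list. Actg2, the smooth muscle gamma actin, showed the highest ratio of the genes above 50 CPM outside the rule. It was found in 53 of 324 Myh11-positive cells, with 0 to 56 UMIs a cell and a median of 0, and in 7 of 213 myofibroblasts. Its level was 51.3 against 2.51 CPM (ratio 20.5, 11.0 to 43.1), and 18.1% of its UMIs in the Myh11-positive cells came from 1 cell. Lmod1, which nucleates actin filaments, stood at 156 against 73.7 CPM (ratio 2.12, 1.86 to 2.43) with a median of 2 UMIs a cell against 1. The other contractile genes above 50 CPM differed by less than 2-fold. Myl9, the regulatory light chain of smooth muscle myosin, was at 662 against 375 CPM (1.77, 1.66 to 1.88), and the tropomyosins Tpm1 and Tpm2 had ratios of 1.71 (1.64 to 1.78) and 1.71 (1.62 to 1.81). Mylk, the kinase that switches on myosin, had a ratio of 1.58 (1.52 to 1.65), the actin crosslinker Flna 1.54 (1.44 to 1.64), the intermediate filament desmin (Des) 1.34 (1.24 to 1.44) and the adhesion protein vinculin (Vcl) 1.36 (1.26 to 1.48). As a description, the rule genes Acta2 and Tagln stood at 2916 and 4385 CPM against 1326 and 2387 CPM, and Myh11 stood at 350.4 CPM with 3 to 80 UMIs a cell and a median of 5.

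Serum response factor binds the CArG box, the DNA element shared by many contractile genes. Promoter windows of 300 bases (250 before to 50 after the transcription start, RefSeq on GRCm38.p6) were matched for 22 of the 26 contractile and rule genes. Actg2, Myh11 and Tagln were among those not matched. A CArG box, whose general pattern is symmetric so that 1 search covers both strands, was found for 4 of the 22 genes (Myl9, Myl6, Vcl and Ldb3), or 18.2%, against 1.81% of the 27025 genes with a window. No exact match was found in the window of Acta2, and a box that departs from the pattern by a base would not be counted. The windows of the 2 genes among the 4 with the highest measured ratios above 50 CPM are shown 5′ to 3′ in the direction of transcription, with the CArG box in capitals. The Myl9 window lies at chr2:156775214-156775513 on the + strand and its box begins at position -161 from the start, and the Vcl window lies at chr14:20929148-20929447 on the + strand with the box at position -227.
Myl9: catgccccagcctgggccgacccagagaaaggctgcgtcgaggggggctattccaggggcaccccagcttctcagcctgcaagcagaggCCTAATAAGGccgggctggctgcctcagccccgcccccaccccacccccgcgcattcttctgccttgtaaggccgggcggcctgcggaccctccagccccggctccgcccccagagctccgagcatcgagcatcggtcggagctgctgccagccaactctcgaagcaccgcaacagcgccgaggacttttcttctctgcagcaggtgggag
Vcl: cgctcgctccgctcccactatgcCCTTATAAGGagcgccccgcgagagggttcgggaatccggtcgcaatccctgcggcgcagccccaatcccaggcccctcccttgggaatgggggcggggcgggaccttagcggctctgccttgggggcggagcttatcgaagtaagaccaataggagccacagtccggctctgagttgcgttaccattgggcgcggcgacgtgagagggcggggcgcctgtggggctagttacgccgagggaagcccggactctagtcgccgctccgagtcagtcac
A match is a sequence description and does not show that the factor was bound in these cells.

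Several genes of the contractile, channel and regulator lists were at or near 0 in the Myh11-positive cells, while others were not. Pln, the inhibitor of the sarcoplasmic calcium pump, had no UMI among 6024436 UMIs of the 324 cells. A count of 0 of 324 cells allows a share of cells with a UMI of up to 1.13% (exact Clopper-Pearson 95% interval, counting error only). Cnn1 was found in 18 of 324 cells at 10.8 CPM, and 1 cell held 13 of its 65 UMIs. Myocd, the master coactivator of the smooth muscle programme, had 4 UMIs in 3 cells. Ryr2, the ryanodine receptor, and Kcnma1, the pore of the large-conductance potassium channel, had none, and Kcnma1 had none either in the 8 cells of the healthy library that met the same rule. In contrast Smtn, the actin-binding smoothelin, stood at 96.4 CPM and Casq2, the calcium store protein calsequestrin, at 59.9 CPM. Kcnmb1, the smooth muscle subunit of the large-conductance potassium channel, was low, with 37 UMIs in 26 cells (6.14 CPM). Of 16 listed smooth muscle regulators, 9 reached 50 CPM: Mef2c, Foxs1, Klf4, Gata6, Foxf1, Hand2, Tcf21, Prrx1 and Nr2f2. Myocd, Srf, Mrtfa and Mrtfb lay below that limit. Of the 9, 8 had a ratio above 1, against 48.6% of all tested genes. With stellate cell factors among the 9, this count does not measure a smooth muscle programme alone. None of the 9 reached 2-fold, which 0.614% of all tested genes did. Across the 15 listed regulators that gave a ratio, the log2 ratio had a median of 0.07. Mef2c, a transcription factor active in muscle, showed the highest at 180 against 127 CPM (1.42, 1.28 to 1.58). Tcf21 and Hand2, transcription factors made by stellate cells, were at 325 and 349 CPM against 315 and 322 CPM.

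In the healthy library the same rule found 8 of 5580 cells (0.143%, 0.0619 to 0.282%) with a median of 8691.5 UMIs. These cells carried the contractile genes at higher levels, summing over the list to 36691 CPM against 10795 CPM in the Myh11-positive cells of the CCl4 library. Myh11 ranged from 20 to 59 UMIs with a median of 30.5, against 3 to 80 with a median of 5 in the CCl4 library. Pln ranged from 0 to 20 UMIs with a median of 13.5 and was found in 7 of the 8 cells, at 1416 CPM (1144 to 1733). Cnn1 was found in 7 of the 8 cells at 392 CPM (256 to 574), and Mcam, an adhesion molecule of vessel walls, in all 8 at 512 CPM against 28.2 CPM in the Myh11-positive cells of the CCl4 library. Dcn had no UMI in any of the 8 cells, Lrat and Reln had none, and Col1a1 had 3 UMIs in 2 cells. Hepatocyte RNA was present in them, with Alb, the serum albumin, at 361 CPM against 25.1 CPM in the Myh11-positive cells, and their median mitochondrial share was 8.71% against 3.97%. The part of free RNA and of depth in these levels was not tested, and since each library holds 1 condition, injury and library cannot be told apart.

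The libraries also differed in how Myh11 was spread over cells. Of the passing healthy cells, 5565 held no Myh11 UMI, 6 held 1, 1 held 3 to 19 and 8 held 20 or more. Of the passing CCl4 cells, 5775 held none, 720 held 1, 265 held 2, 360 held 3 to 19 and 10 held 20 or more. By raw counts the healthy cells lay mostly at 0 or at 20 or more, and the CCl4 cells formed a graded series. Median depth was 7135 UMIs in the healthy and 13055 in the CCl4 library. Low-Acta2 stellate cells needed at least 5 UMIs of Lrat, Reln, Colec11 and Rgs5 together, at most 2 of Acta2 and no Myh11. Within the same limits on Ptprc, Pecam1 and Cdh5, 126 of 5580 healthy and 1531 of 7130 CCl4 cells passed. The 126 held cholangiocyte markers at 34527 CPM. The part of depth and cell make-up was not tested.

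**Figure D2:**
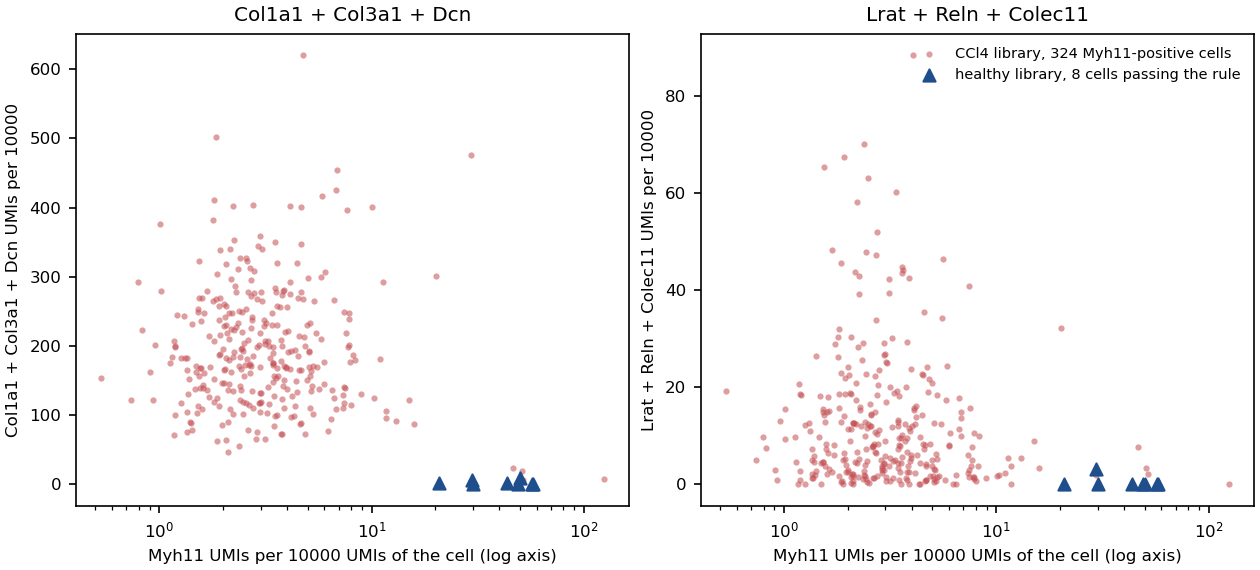
Each point is a cell. The x axis gives Myh11 UMIs per 10000 UMIs of the cell (log axis) and the y axis gives Col1a1, Col3a1 and Dcn (left) or Lrat, Reln and Colec11 (right) UMIs per 10000. The 8 healthy cells lie at 20.8 Myh11 UMIs per 10000 or more with at most 9.52 matrix UMIs per 10000, while the 324 cells of the CCl4 library have a median of 2.88 Myh11 and 183 matrix UMIs per 10000.

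Col1a1, Col3a1 and Dcn together made up 6.45 to 620 UMIs per 10000 in the Myh11-positive cells with a median of 183, and 32.8 to 394 with a median of 220 in the myofibroblasts. In the 8 healthy cells they made up 0 to 9.52 with a median of 1.61. Only 2 of the 324 Myh11-positive cells lay within the range of the healthy cells. These 2 cells held 24 and 80 Myh11 UMIs, 34 Rgs5 UMIs each, and 0 or 1 UMI of the 3 stellate markers, and no Pln UMI. By Myh11 per 10000 UMIs, 5 of the 324 cells reached the lowest of the healthy cells.

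No gap in the counts marked the Myh11 limit. The 94 cells with 3 Myh11 UMIs, just inside the limit, and the 196 cells with 2 that met the other limits, just outside it, had Lrat at 275 and 246 CPM, Col1a1 at 4681 and 4700.0 CPM, and Actg2 at 9.41 and 4.63 CPM. Cnn1 was at 0 and 1.16 CPM, while Tnnt2 was at 161 and 88.9 CPM and Myl9 at 523 and 376 CPM. The other limits removed few cells: 20 had under 5 UMIs of Acta2 and Tagln, 24 had over 1 UMI of Pecam1 and Cdh5, and 2 had a Ptprc UMI. Of 591 cells with at least 10 Acta2 UMIs and at least 5 UMIs of the 4 stellate markers, 186 held 3 or more Myh11 UMIs (31.5%, 27.7 to 35.4%).

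Contractile RNA was higher at higher Myh11 counts among the 2629 cells that met the other limits of the rule. The values below describe cells binned by a gene of the rule, and depth moved with the bins, from a median of 15193 UMIs in the 1659 cells without Myh11 to 19705.5 in the 48 cells with 10 to 19. Actg2 went from 1.23 CPM without Myh11 to 13.4 CPM at 4 or 5 UMIs, 120 CPM at 10 to 19 and 481 CPM in the 9 cells with 20 or more. Cnn1 stood at 1.23 CPM without Myh11, had no UMI in the cells with 3 to 5, and reached 39.7 and 102 CPM in the 2 highest bins. Notch3, the receptor needed by arterial mural cells, was at 14.0 CPM without Myh11, 22.4 CPM at 4 or 5 UMIs and 190 CPM at 20 or more. Tnnt2 was at 41.6, 192 and 271 CPM in the same 3 bins. Dcn stood at 8269 CPM without Myh11 and at 5045 CPM at 10 to 19 UMIs, and Col1a1 stood at 3351 and 6186 CPM in those bins. The share of cells with 5 or more stellate UMIs was 67.7% without Myh11, 80.9% at 3 UMIs, 68.8% at 10 to 19 and 55.6% (5 of 9 cells) above that.

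**Figure D3:**
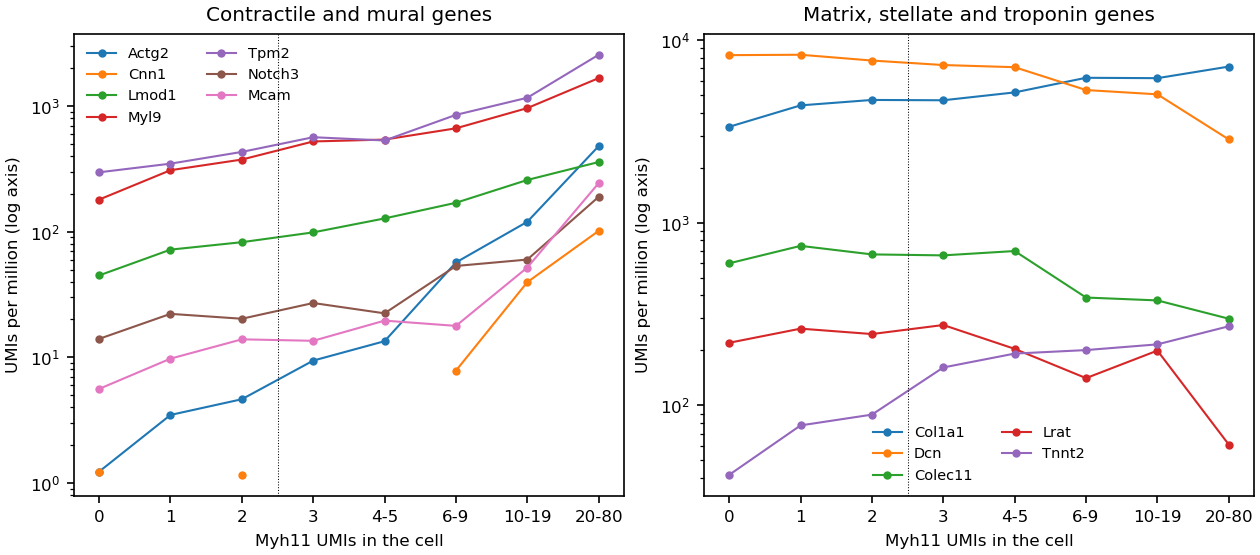
Summed levels (CPM, log axis) against the number of Myh11 UMIs in the cell, for CCl4 cells that met the rule apart from Myh11. Points with fewer than 3 UMIs are left out, and the dotted line marks the limit of 3 Myh11 UMIs. Actg2 rises from 1.23 to 481 CPM over the bins. Across the limit, from 2 to 3 Myh11 UMIs, Col1a1 stays at 4700 and 4681 CPM, while Actg2 goes from 4.63 to 9.41 CPM and Tnnt2 from 88.9 to 161 CPM.

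Over the 3096 genes with at least 50 CPM, 19 were at least 2-fold higher in the Myh11-positive cells (0.614%) and 16 at least 2-fold lower (0.517%). Myh11 and Acta2, which chose the cells, are among the 19. After Actg2 came Tnnt2, the cardiac troponin T, at 191 against 46.1 CPM (ratio 4.14, 3.54 to 4.87). It was found in 177 of 324 Myh11-positive cells, with up to 71 UMIs, and in 64 of 213 myofibroblasts. Meg3, a maternally expressed noncoding RNA, was at 95.6 against 23.8 CPM (4.02, 3.23 to 5.04) and was found in 75 of the 324 cells. Tgfb3, a ligand of the TGF-beta family, was at 89.1 against 27.6 CPM (3.23, 2.63 to 4.01), while Tgfb1 was at 44.7 against 47.4 CPM and Tgfb2 at 102 against 63.2 CPM. Ltbp2, a microfibril-associated protein, was at 574 against 235 CPM (2.44, 2.27 to 2.62). The other 9 genes among the 15 highest beside Lmod1 were Col6a5, Plagl1, Lgi2, Fgl2, Nrp2, Cadm4, Myh10, Fbn2 and Npr3, with ratios from 2.05 to 2.36. Fbn2 is a fibrillin of elastic microfibrils, Myh10 a nonmuscle myosin heavy chain, Npr3 the clearance receptor for natriuretic peptides and Nrp2 a semaphorin and VEGF coreceptor.

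For several of the genes lower in the Myh11-positive cells, a large part of the UMIs came from single cells. Slpi, a protease inhibitor, stood at 132 against 858 CPM (ratio 0.15, 0.14 to 0.17), and 1 cell held 42.6% of its UMIs in the Myh11-positive cells and another 28.0% in the myofibroblasts. Saa3, an acute phase protein, stood at 729 against 2416 CPM (0.30, 0.29 to 0.31) with a median of 1 UMI a cell in both populations and up to 1157 and 2432 UMIs in a single cell. Cenpf and Prc1, which act in mitosis, had ratios of 0.22 (0.18 to 0.28) and 0.24 (0.19 to 0.30), and Cenpf was found in 22 of 324 and 18 of 213 cells. Inhba, the activin A subunit, was at 19.6 against 71.4 CPM (0.27, 0.22 to 0.34). Kcnj8, the pore of the vascular KATP channel, was at 26.6 against 56.4 CPM (0.47, 0.38 to 0.58), while Abcc9, its regulatory subunit, was at 208 against 237 CPM. Hp, Basp1, Gm20186, Upk3b, Cfb, Mgp, Cd74, Ezr and Flrt2 completed the 15 lowest, with ratios from 0.28 to 0.47. When every cell weighed the same in place of every UMI, 6 genes were at least 2-fold lower and 22 at least 2-fold higher. The limit of 50 CPM was applied there to the equally weighted levels. Without that limit, 27 of the 30 genes with the highest and lowest ratios stayed past 2-fold, and none changed sign.

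Markers of other cell types moved with this comparison, and the myofibroblast rule set no limit on Ptprc, Pecam1 or Cdh5. Of the myofibroblasts, 14 of 213 lay outside those limits. Summed over 12 endothelial markers the Myh11-positive cells stood at 745 against 979 CPM, of which Plvap, a marker of fenestrated endothelium, gave 693 and 814 CPM. Within the Myh11-positive cells, Plvap was found in 189 of the 244 with 5 or more stellate UMIs and in 13 of the 80 with fewer. Immune markers summed to 67.4 against 154 CPM with Ptprc at 0 by rule, mesothelial markers to 164 against 348 CPM and cholangiocyte markers to 27.7 against 109 CPM, with Epcam at 0. Hepatocyte markers stood at 271 against 293 CPM, and cell cycle genes at 178 against 410 CPM with all 12 below a ratio of 1. Cell cycle genes stood at 211 CPM in the low-Acta2 stellate cells and at 245 CPM in all other passing cells of the library. Mki67 was found in 27 of 324 Myh11-positive cells and in 23 of 213 myofibroblasts. With the same limits set on the myofibroblasts, 17 genes were at least 2-fold higher and 16 lower, and the contractile median log2 ratio was 0.47. The endothelial median log2 ratio, -1.50 in the main comparison, was then above 0. The part of these markers in the other genes was not tested.

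**Figure D4:**
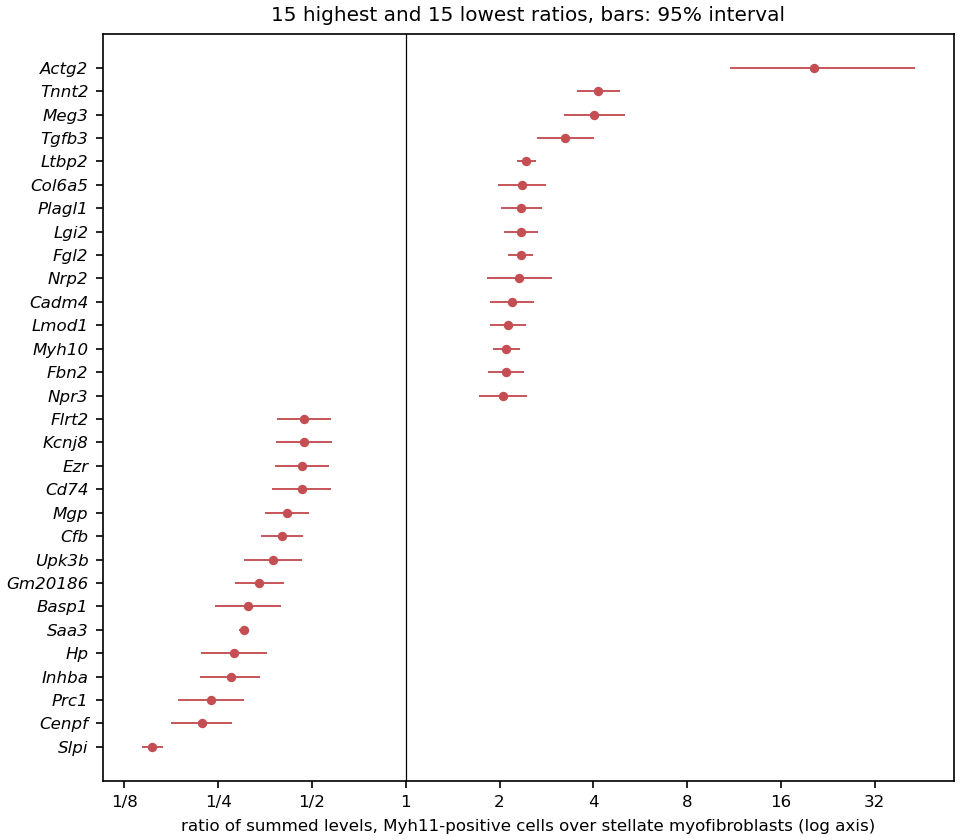
Ratio of the summed level in the 324 Myh11-positive cells over that in the 213 stellate myofibroblasts (log axis) with 95% binomial intervals, for the 15 highest and 15 lowest of the genes with at least 50 CPM, rule genes and mitochondrial genes left out. Actg2 stands alone at 20.5, the other 14 higher genes lie between 2.05 and 4.14, and Slpi is lowest at 0.15.

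The remaining gene groups are given beside the 48.6% of all tested genes with a ratio above 1. Mural genes had a median log2 ratio of 0.10. Of the 5 that reached 50 CPM, 2 had a ratio above 1 and 1, Kcnj8, was at least 2-fold lower. Their median was -0.08. Pdgfrb, the PDGF receptor of mural and stellate cells, was at 420 against 315 CPM (1.33, 1.24 to 1.43). Below the 50 CPM limit, Notch3 was at 41.2 against 26.3 CPM (1.56, 1.24 to 1.98) and Mcam at 28.2 against 17.8 CPM. Of the Notch list only Hes1 and Rbpj reached 50 CPM, with ratios of 1.04 and 1.24. Genes of PDGF and TGF-beta signalling had a median log2 ratio of 0.28, and 11 of 12 tested had a ratio above 1. Integrins had a median of 0.29, with Itga8, the nephronectin receptor subunit, at 611 against 366 CPM (1.67, 1.57 to 1.78). Vasoactive receptors and cyclic nucleotide genes had a median of 0.15, with the endothelin receptors Ednra and Ednrb at 77.7 and 319 CPM against 111 and 351 CPM. The ion channel list had a median of 0.20, elastic fibre genes -0.03 and portal fibroblast genes -0.01. The 12 immediate early genes, which respond to tissue digestion, had a median of 0.06 and no 2-fold difference. Schwann and neural markers, of which 3 gave a ratio, had a median of 0.08.

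**Figure D5:**
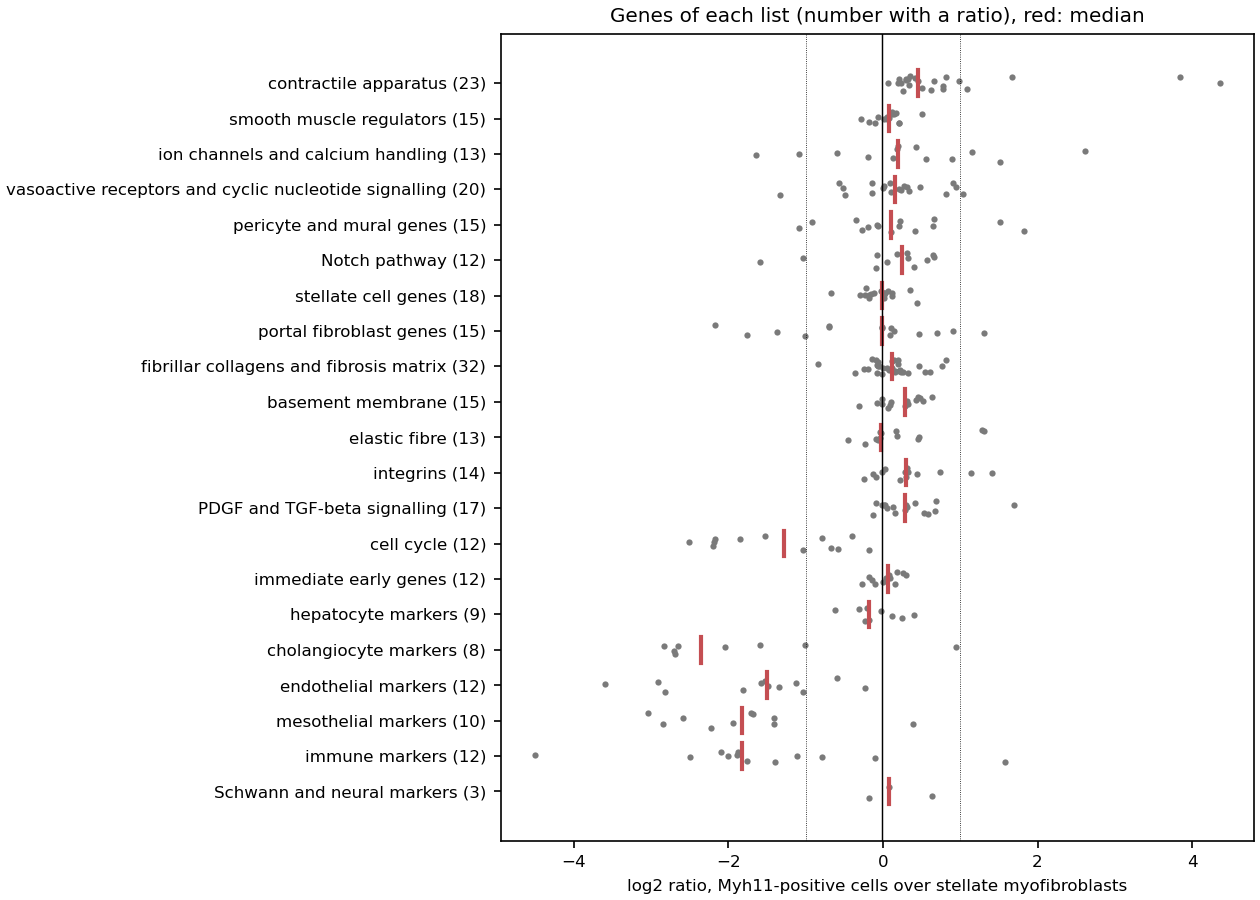
Log2 ratio of the Myh11-positive cells over the stellate myofibroblasts for each gene of 21 lists (points), with the list median (red), the median of all tested genes (solid line) and 2-fold differences (dotted lines), rule genes left out. Contractile genes lie to the right of 0, stellate and matrix genes around it, and cell cycle genes and markers of epithelium, endothelium, mesothelium and immune cells to the left. Only the rule of the Myh11-positive cells limited Ptprc, Pecam1 and Cdh5, so lower immune and endothelial markers were partly set by the rules. With the same limits on the myofibroblasts the endothelial median lay above 0.

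Against all 6806 other passing cells of the CCl4 library, the 10 genes with the highest ratios outside the rule were muscle, contractile or matrix genes. Actg2 was at 51.3 against 1.20 CPM (ratio 42.8, 34.2 to 53.8), Tnnt2 had a ratio of 6.60 (6.15 to 7.08), Fbxl22, an F-box protein of the muscle Z-disc, 5.95 (5.54 to 6.39), Myl9 5.56 (5.36 to 5.77) and Lmod1 4.98 (4.62 to 5.37). Tnc, Col12a1, Nexn, Tpm2 and Col8a1 followed with ratios from 3.43 to 3.66.

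The Myh11-positive cells were not uniform. When they were split by their UMIs of Lrat, Reln and Colec11, 80 cells with fewer than 5 (median depth 15196 UMIs) and 244 cells with 5 or more (17913.5 UMIs) had contractile genes that went both ways. The contractile list had a median log2 ratio, low over high, of -0.04, against -0.01 over all tested genes. Lmod1 stood at 226 against 137 CPM (ratio 1.65, 1.43 to 1.90), Mylk at 1553 against 1114 CPM and Pdlim3, a Z-disc protein, at 62.8 against 16.1 CPM (3.90, 2.82 to 5.40). Ppp1r14a, an inhibitor of myosin phosphatase, went the other way with a ratio of 0.38 (0.32 to 0.44), and Actg2 stood at 49.8 against 51.7 CPM. Of the rule genes, Myh11 stood at 506 against 307 CPM, Acta2 at 3238 against 2827 CPM and Tagln at 4401 against 4380 CPM. This split was made on 3 genes after their values were seen and is described without a test. Of 3218 genes with at least 50 CPM in either set, 92 were at least 2-fold higher in the low set (2.86%) and 96 at least 2-fold lower (2.98%).

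Of 15 stellate cell genes tested, 9 were at least 2-fold lower in the low set and the list median was -0.90. Colec10 was at 2.30 against 91.1 CPM, Angptl6 at 2.30 against 62.7 CPM and Rspo3 at 50.6 against 277 CPM. Plvap, which was not among the splitting genes, showed the lowest ratio of all at 14.6 against 881 CPM (0.02, 0.01 to 0.03). Rgs5, a signalling regulator of pericytes, was at 75.1 against 412 CPM and Ednrb at 78.2 against 385 CPM. Hgf was closer, at 300.4 against 377 CPM.

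The 32 fibrosis matrix genes summed to 36366 CPM in the low set against 47007 CPM in the high set, with a median log2 ratio of -0.28. Of 30 tested, none was 2-fold higher in the low set and 3 were 2-fold lower (Col14a1, Postn and Dcn). Col1a1 was at 5835 against 5395 CPM and Lum, a proteoglycan of collagen fibrils, at 2033 against 1425 CPM, whereas Dcn was at 3252 against 7148 CPM and Col3a1 at 4932 against 8454 CPM. Of the portal fibroblast genes, 4 of 6 tested were at least 2-fold higher in the low set, with a list median of 1.31. Dpt (dermatopontin) was at 870.5 against 503 CPM, Mfap4, a microfibril protein, at 304 against 124 CPM and Cd34 at 114 against 53.0 CPM. The 378 portal-type fibroblasts were defined by at least 5 UMIs of Clec3b, Dpt, Pi16 and Entpd2 together. They also held at most 1 UMI of Lrat, Reln and Colec11, no Myh11, and met the members' limits on Ptprc, Pecam1 and Cdh5. Of these defining genes beside Dpt, Entpd2 was at 25.3 against 9.32 CPM in the low and high sets. Clec3b was at 8.43 against 2.75 CPM and at 199.9 CPM in the portal-type fibroblasts. Ltbp2 was at 1009 against 454 CPM, Tnnt2 at 334 against 151 CPM, Meg3 at 251 against 52.8 CPM and Tgfb3 at 136 against 76.3 CPM. Mesothelial markers summed to 316 against 122 CPM in the low set, and 1 cell held 77.8% of its Slpi UMIs.

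The counts changed when the Myh11-positive cells were restricted by their stellate UMIs. With only the 244 Myh11-positive cells that held 5 or more stellate UMIs, 6 genes were at least 2-fold higher and 18 lower. Myh11 and Acta2, which chose the cells, are among the 6. The contractile median log2 ratio was 0.43 and the matrix median 0.10. Actg2, Tnnt2, Tgfb3 and Meg3 stayed above 2-fold there, at log2 ratios of 4.37, 1.72, 1.47 and 1.15, while Ltbp2 was at 0.95 and Lmod1 at 0.90. With only the 177 cells that passed the whole myofibroblast rule apart from Myh11, the contractile median was 0.56 and 13 genes were at least 2-fold higher. With only the 13 cells without any of the 3 markers, the stellate median was -0.89 and the matrix median -0.35, while the contractile median stayed at 0.45.

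Counts varied most from cell to cell for RNAs outside contraction as well as within it. After thinning to 2000 UMIs, high ratios of variance to mean among genes above 50 CPM were those of the ribosomal RNA-overlapping Gm42418 (52.1), Saa3 (44.7), Malat1, a nuclear noncoding RNA (21.5), Acta2 (10.3) and Tagln (8.71). Slpi lay between Malat1 and Acta2, and Col3a1, Dcn, Col1a1, Actb, Crip1 and Fth1 followed, from 7.75 to 4.71. Saa3 was found in 12.7% of the thinned cells with up to 97 UMIs, and Dcn in 98.8% with up to 51.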

How the data were processed

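Single-cell RNA-seq (10x Genomics, 3′ libraries) of liver cells from healthy and CCl4-injured mice gave 1 library a group. The authors deposited filtered matrices of UMI counts per gene and cell, made with Cell Ranger 3.1.0 (healthy, 31053 genes, 6297 cells) and 6.0.1 (CCl4, 32285 genes, 8460 cells) per the file headers. The study's methods instead describe an in-house pipeline (fastp, featureCounts 1.6.2) with the human build GRCh38, the submitters' processing notes name mm10 as well, and the matrices hold mouse genes. These sources conflict, so the annotation behind the counts could not be settled. The Cell Ranger versions and the number of gene models differ between the libraries.

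Cells with at least 1000 UMIs and at most 30% mitochondrial UMIs were kept. Cell rules were applied to raw counts without clustering. The members, the gene lists and the comparisons were chosen with earlier results of these data known. UMIs were summed per population and divided by the total (CPM). Intervals are exact at 95% (Poisson for a level, conditional binomial for a ratio, Clopper-Pearson for a share) and cover counting error only. Counts below 3 were raised to 3 in a ratio, and no ratio was formed where both were at or below 3. Genes with at least 50 CPM in the higher population were compared with a 2-fold limit. Named genes were those of 21 lists, the 15 highest and 15 lowest ratios to the myofibroblasts, the 10 highest ratios to all other cells and the 12 with the highest variance over mean after thinning to 2000 UMIs, with rule genes left out of the ratio ranks and mitochondrial genes left out throughout. Genes picked outside this rule were named for the split of the members by stellate UMIs, after their values were seen. Doublets were not removed in the main values. As an alternative the 573 cells with the highest Scrublet scores (0.8% per 1000 cells) were dropped, 16 of them members and 32 myofibroblasts. Python 3.11.15, numpy 2.4.6, scipy 1.17.1, scanpy 1.11.5, R 4.3.3 and edgeR 4.0.16 (TMM factors only) were used. The intervals and thinning were tested on simulated counts. Some genes are not reported here. Nearby or overlapping genes share reads, so Gm42418 in particular is uncertain.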

Additional observations from a re-analysis of the deposited data

How the results depend on the processing

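No paired analysis was possible because each group is 1 library. Alternatives covered cell limits, the Myh11 limit, doublets, the comparison cells, cell weight, scaling, the CPM limit and the floor, and 5 more were chosen after seeing the data (limits on the comparison cells, 3 narrower choices of members, and immune cells without a collagen limit). Of 96 values of the main results under an alternative, 81 stayed within the counting interval or within 1.5 times the count, while 110 of 510 values of the 30 named genes moved. Of these 30 genes, 21 stayed past 2-fold with comparison cells of at least 20 Acta2 UMIs, 22 with at least 2 Myh11 UMIs, 26 without the highest Scrublet scores, 20 with members that pass the comparison rule and 18 with members of at least 5 stellate UMIs. The share of Myh11-positive cells was 7.29% with at least 2 Myh11 UMIs and 2.36% with at least 5, where 32 genes were at least 2-fold higher and the stellate median was -0.35. Without any UMI of Lrat, Reln and Colec11 the share was 0.18%, the stellate median -0.89, the matrix median -0.35, and 326 and 230 genes were at least 2-fold higher and lower. With a limit of 20 CPM these counts were 33 and 54, and with no limit 375 and 815. Weighing cells equally left 6 lower genes above 50 CPM, although 27 of the 30 named genes stayed past 2-fold whatever their level. Members with at least 5 stellate UMIs left 6 higher genes, the rule genes Myh11 and Acta2 among them. In the 13 cells without stellate UMIs, log2 ratios changed sign to 0.98 for Slpi, 0.50 for Hp, 1.83 for Saa3, 0.98 for Gm20186, 0.44 for Upk3b, 0.020 for Cfb, 0.15 for Mgp, 3.18 for Cd74, 0.44 for Ezr and 0.80 for Flrt2, and medians to 1.41 for cholangiocyte, 0.36 for endothelial, 0.21 for mesothelial and 1.73 for immune markers. With the same gate on the comparison cells the endothelial median was 0.17. The cause was not tested. None of the 30 named genes changed sign under another alternative. Of 171 shares of cells with a UMI, 103 moved without thinning, at a thinning depth of 1000 UMIs or without the collagen limit. The 13 cells without stellate UMIs and the 8 healthy cells hold too few UMIs for low genes.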

Other observations

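Beside Meg3 and Plagl1, which the ratio ranks named, other imprinted genes were looked up after those values were seen. Rian, a noncoding RNA of the Meg3 locus, stood at 14.6 against 3.01 CPM in the Myh11-positive cells and the stellate myofibroblasts, Peg3 at 71.5 against 43.4 CPM, Cdkn1c at 55.4 against 39.1 CPM and Mest at 9.79 against 4.26 CPM. Grb10 was at 74.5 against 68.7 CPM and Ndn at 47.0 against 50.6 CPM, and Igf2, H19, Dlk1 and Mirg were below 3 CPM in both. Within the Myh11-positive cells Rian was at 43.7 CPM in the 80 cells with fewer than 5 stellate UMIs and at 6.57 CPM in the other 244, and Meg3 was found in 36 and 39 of them.

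Genes that the 8 healthy cells held and the 324 Myh11-positive cells of the CCl4 library lacked, or held below 4 CPM, included Sncg (gamma-synuclein, 678 CPM against no UMI), Nrip2 (377 against 1.16 CPM) and Map3k7cl (256 against 3.98 CPM). Mustn1, a small muscle protein, was at 2802 against 168 CPM. These genes were chosen after their values were seen.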
